A study of Bos taurus with 38 samples.

Results

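Growth under unrestricted feeding was followed in the rumen papillae of ADLIB bulls, by comparing the end of Period 2 with the end of Period 1. The samples were chosen by their labels alone, as 10 ADLIB samples of Period 2 and 9 ADLIB samples of Period 1, which are 19 of the 38 samples of the series. In all, 12634 genes were listed in the deposited values of Period 1 and 12711 in those of Period 2. The comparison used the 12543 genes listed in both periods, of which 12526 passed a filter on low counts and were tested.

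The ADLIB animals were purebred Holstein Friesian males that had free access to a mixed concentrate and grass silage diet for the whole trial. Period 1 ended on day 125 and Period 2 followed for a further 55 days, to day 180. The other 19 samples came from RES bulls, which received a restricted allowance of the same diet in Period 1 and unrestricted feed in Period 2, and they are used only where a change is set beside theirs. Papillae were taken at slaughter, so the bulls of the 2 periods were different animals and no bull was measured at both times. Age, body weight, season, slaughter session and time on the diet therefore cannot be told apart in this comparison. Only animals with RNA of high quality were sequenced. The labels give rumen epithelium as the tissue, while their extraction text speaks of muscle, and the study's methods describe papillae cut from the ventral sac of the rumen. Gene identifiers could not be paired with symbols (0 of 12802), so the tissue was not checked against marker genes, and genes are given by identifier and without a function.

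Rumen papillae are projections of the rumen wall covered by a keratinised, layered epithelium. They take up the short-chain fatty acids released by microbial fermentation, convert part of them to ketone bodies and form a barrier towards the rumen content. Papillae are known to change in size and in gene expression with the amount and the fermentability of the feed, and the ADLIB bulls serve to describe what happens with time when the feeding regimen stays as it is.

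The unit of the deposited values is not named in the sources used here. They were taken as CPM, the depth-scaled read count of edgeR, in which the reads on a gene are set against the library size after TMM scaling, which adjusts the library size for differences in composition. This was inferred from the values, which in each sample were whole multiples of the value of 1 read. Whole reads were recovered from them, and the 19 samples were put on 1 common TMM scale. Reads on listed genes ranged from 7263538 to 11251230 per sample in Period 1 (median 10524345) and from 6190228 to 11502112 in Period 2 (median 8926700). The difference was smaller than the spread between samples (p = 0.167 in a two-sided exact permutation test, 0.333 after adjustment over 2 measures). The 10 most-read genes held from 15.9 to 21.8% of the reads in Period 1 and from 15.1 to 23.8% in Period 2 (p = 0.661 in the same exact permutation test, before and after adjustment). A count of 3 reads corresponded to between 0.251 and 0.64 CPM. Such limits cover counting error only.

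Some samples stood apart from the others. ADLIB Period 1 replicates 1 and 8 lay closer together than any other of the 171 pairs of ADLIB samples. The SD over genes of their log2 difference was 0.223, while the next closest pair had 0.362 and the median of all pairs was 0.459. Their reads still differed by more than sampling noise. The chi-square statistic per gene was 4.57 (12532 genes with 10 or more reads) where counting error alone gives about 1, and 1.37 over the 4128 genes that had 10 or more but under 200 reads. In every other pair these values were at least 13.7 and 2.54, respectively. The 2 libraries carry different digits in their identifiers, 3 and 2. They were kept as 2 bulls, as labelled, and results are also given with their reads summed as 1 sample, an alternative chosen after the data were seen. ADLIB Period 1 replicate 4 had the largest median distance to the other samples, 0.588, and ADLIB Period 2 replicate 5 had the second largest, 0.561, together with the fewest reads.

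The bulls of different periods were about as far apart as bulls of the same period. The SD of the log2 difference between 2 bulls had a median of 0.46 over the 90 pairs between periods, 0.442 over the 36 pairs within Period 1 and 0.469 over the 45 pairs within Period 2. The difference between the period means accounted for 5.86% of the variance over all genes, and a split into 2 such groups takes 5.56% on average when no gene differs. On the first principal component, with 17.2% of the variance, bulls lay between -24.9 and 35.3 in Period 1 and between -24.4 and 22.5 in Period 2. The highest value, 35.3, was that of Period 1 replicate 4. On the second component, with 14.1%, they lay between -14.7 and 33 and between -21.7 and 20.8, respectively.

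**Figure D1:**
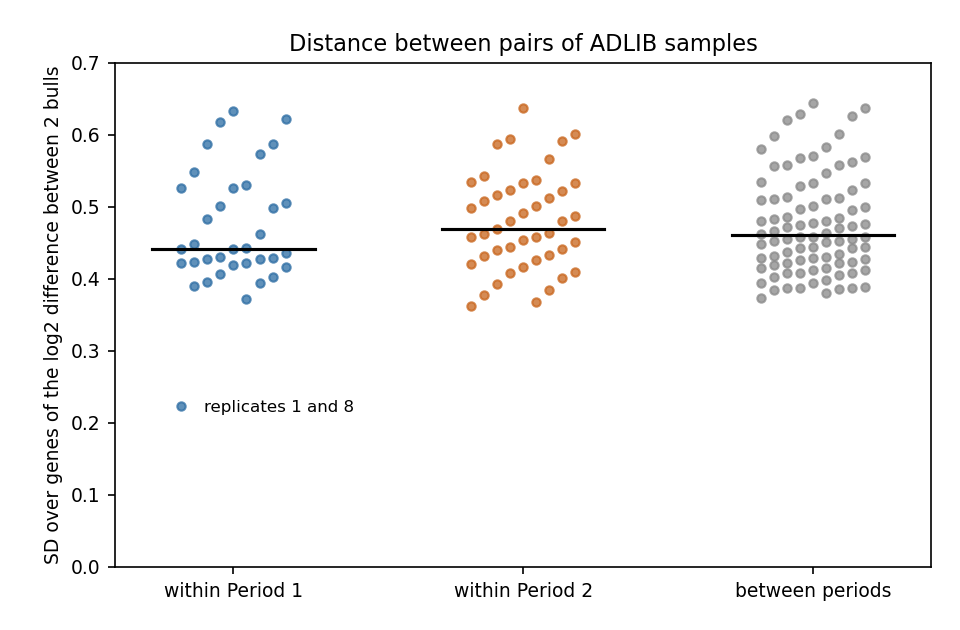
Distance between 2 ADLIB bulls, as the SD over genes of their log2 difference in expression, for pairs within Period 1, within Period 2 and between the periods; each point is a pair and each line a median (0.442, 0.469 and 0.46). Pairs between periods lie from 0.374 to 0.645 and pairs within Period 2 from 0.362 to 0.638, and the pair of Period 1 replicates 1 and 8 lies alone at 0.223.

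No gene was differentially expressed between the periods in ADLIB bulls (0 of 12526 genes tested, 0%; limma with Benjamini-Hochberg adjustment, smallest adjusted p = 0.261). Before adjustment, p was under 0.05 in 718 genes (5.73%), where the threshold itself lets through 5% if no gene changes. Of these, 387 genes (3.09% of those tested) had higher expression at the end of Period 2 and 331 (2.64%) had lower expression. At an unadjusted p under 0.01 there were 143 genes (1.14%), 93 higher and 50 lower. In no gene were the values of the 2 periods without overlap (0%). Count models on the recovered reads called few genes, with 0 by edgeR's quasi-likelihood test (0%), 3 by edgeR's exact test (0.024%) and 4 by DESeq2 (0.0319%). The study, which used edgeR with tagwise dispersions, reported 5 genes for this comparison. Without symbols, those genes could not be looked up here. With Period 1 replicates 1 and 8 counted as 1 sample, 513 of 12533 genes had an unadjusted p under 0.05 and 0 passed the adjusted threshold.

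The estimated changes were small. The absolute log2 fold change had a median of 0.0849, and the 5th to 95th percentiles of the log2 fold change were -0.259 and 0.23. The most extreme estimates were -1.61 and 2.00. In 80 genes the estimate was beyond 1.5-fold, with 32 higher and 48 lower in Period 2, and in 8 genes it was beyond 2-fold, with 5 higher and 3 lower. Of those 8 genes, 3 had an unadjusted p under 0.05, and the smallest adjusted p among them was 0.572 by limma. Of the 80 genes beyond 1.5-fold, 41 had an unadjusted p under 0.05, beside 5.73% of all genes tested. A large estimate lowers p, so this count follows in part from the choice of genes. The 8 genes beyond 2-fold varied more between bulls of the same period than all genes did. The SD of log2 expression in the more variable period had a median of 1.39 in the 8 genes and of 0.291 in all genes.

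Higher and lower genes were unequally spread over the levels of expression, a feature examined after the data were seen. Among the genes at an unadjusted p under 0.05, those higher in Period 2 had a median of 42.5 CPM and those lower a median of 10.1 CPM, while all genes tested had a median of 19.6 CPM. From 20 CPM upward, 277 genes were higher and 98 lower, so that 73.9% were higher. Below 20 CPM, 110 were higher and 233 lower, so that 32.1% were higher. The median log2 fold change was 0.0163 over all 6210 genes from 20 CPM and -0.0283 over the 6316 genes below it. With the library digit as a covariate the shares higher were 71.5 and 30.4%, and with replicates 1 and 8 as 1 sample they were 71.8 and 29.8%. Leaving out 1 bull at a time, they ranged from 64 to 76.5% and from 26.6 to 43.7%, with the lowest of the first without Period 2 replicate 9 and the highest of the second without Period 1 replicate 4. In RES bulls the same shares were 53.6 and 45%. Whether these shares differ between the diets was not tested. Of all 2435 genes under 5 CPM, 1.97% were higher and 3.78% lower in ADLIB bulls at an unadjusted p under 0.05. At 5 to 20 CPM these percentages were 1.6 and 3.63%. They were 4.02 and 1.63% at 20 to 100 CPM, and 5.95 and 1.4% at 100 CPM and over. In all genes tested they were 3.09 and 2.64%. Genes are not independent of each other, and the pattern itself was not tested.

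**Figure D2:**
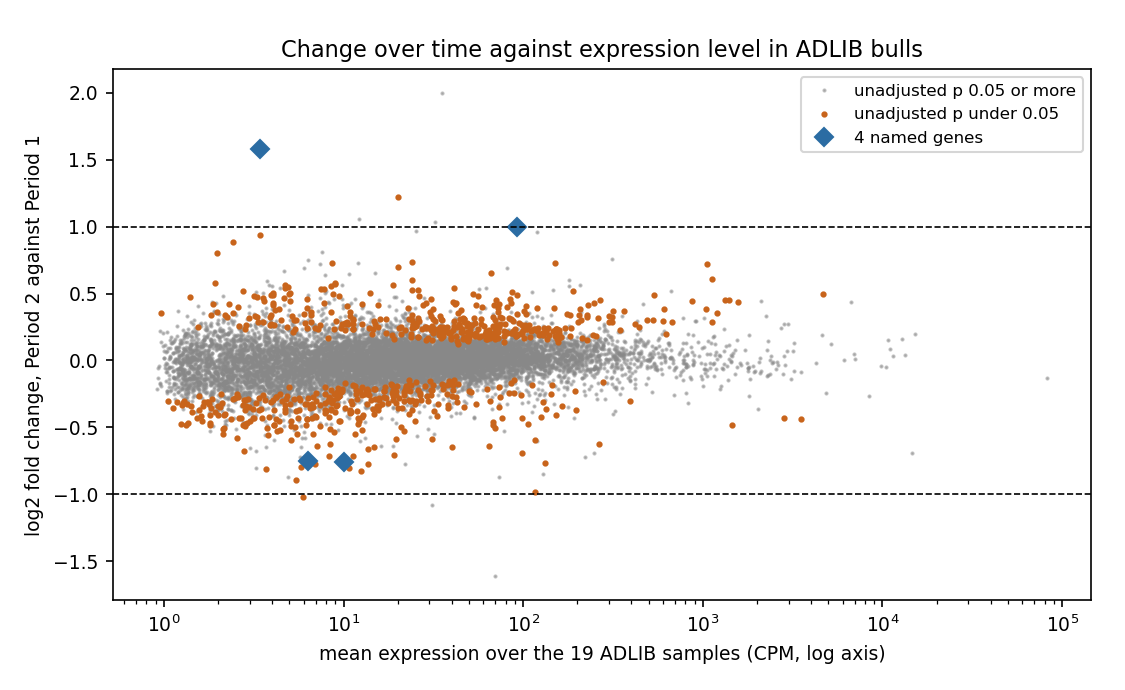
Log2 fold change between the periods in ADLIB bulls against mean expression (CPM, log axis) for the 12526 genes tested; orange points are the 718 genes with an unadjusted p under 0.05, diamonds the 4 named genes and dashed lines a 2-fold change. Most estimates lie near 0, 8 lie beyond 2-fold, and orange points above 0 are found mainly to the right.

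The spread between bulls set how large a change could have gone undetected. A change beyond a given size was taken as excluded in a gene where 2 one-sided limma tests placed the log2 fold change inside the limits of that size in either direction (Benjamini-Hochberg adjusted p under 0.05). A change over 2-fold was excluded in 12379 genes (98.8%) and not in 147. A change over 1.5-fold was excluded in 11412 genes (91.1%) and not in 1114. A change over 1.25-fold was excluded in 5234 genes (41.8%), so that changes of this size remained possible in the larger part of the genes. A change over 3-fold was excluded in all genes tested but 30.

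The 95% confidence interval of the log2 fold change had a median width of 0.246 to either side, which is 1.19-fold, and from 0.151 to 0.489 at the 5th and 95th percentiles. In 217 genes this interval reached beyond 2-fold, towards higher expression in 102, towards lower expression in 127 and in both directions in 12. In 18 genes it reached beyond 4-fold. The mean expression of these 18 genes was from 3.42 to 311 CPM with a median of 52.4 CPM, and 13 of them had 20 CPM or more.

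Precision was highest in genes of intermediate to high expression. In the 2435 genes under 5 CPM a change over 1.5-fold was excluded in 83.7%, in the 3881 genes of 5 to 20 CPM in 89.6%, in the 4782 genes of 20 to 100 CPM in 95.8% and in the 1428 genes of 100 CPM and over in 92.1%. The percentages for 1.25-fold were 7.39, 33.9, 61.4 and 56.1%. Since 1 was added to each CPM before taking logarithms, the change of a gene with few reads is understated. With 0.1 added instead, a change over 1.5-fold was excluded in 48.3% of the genes under 5 CPM and in 91% of those from 5 CPM, and a change over 2-fold in 91.4 and 98.4%.

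**Figure D3:**
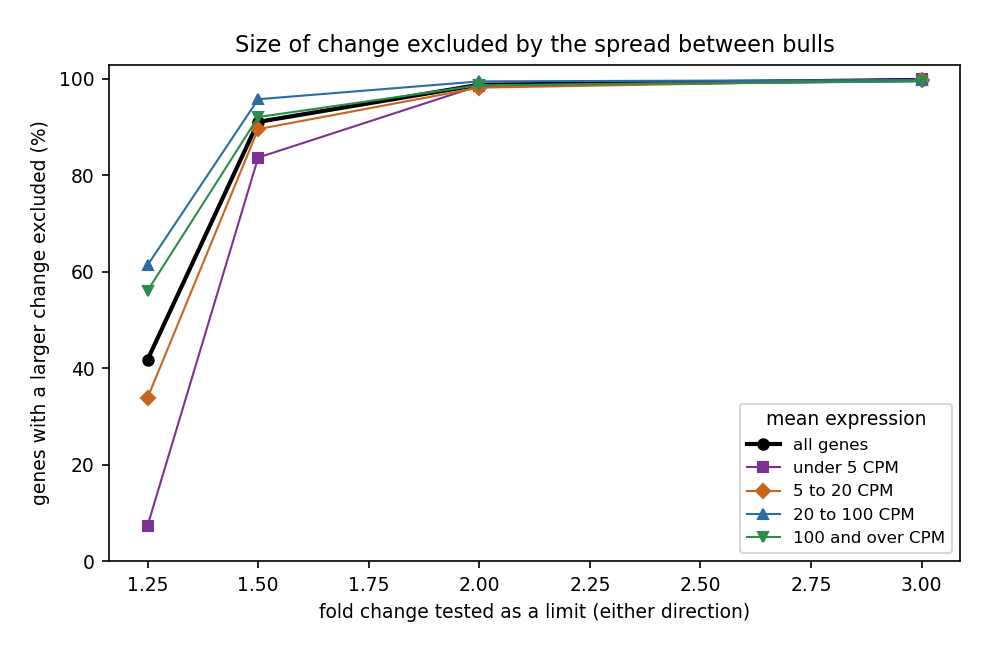
Percentage of genes in which a change larger than a given fold in either direction was excluded (limits of 1.25, 1.5, 2 and 3-fold), for all 12526 genes tested and for classes of mean expression in CPM. At 1.25-fold the classes lie between 7.39 and 61.4%, and at 2-fold all lie at 98.2% or above.

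The 147 genes in which a 2-fold change was not excluded had a median of 9.9 CPM, compared with 19.8 CPM in the others. An unadjusted p under 0.05 was found in 37 of them, beside 5.73% of all genes tested. A large estimate itself hinders exclusion, so this count follows in part from the choice of genes. The SD of log2 expression also enters the exclusion test. Its median was 0.993 in Period 1 and 0.952 in Period 2 in these 147 genes, and 0.238 and 0.263 in the others. In the 100 genes that varied most within the periods, the SD of log2 expression pooled over both periods was from 0.972 to 2.83, whereas the median of all genes was 0.259. A change over 2-fold was excluded in 25 of these 100 genes, and 1 had an unadjusted p under 0.05. The SD by which these genes were picked enters both tests, so low counts follow from the choice. The largest deviation from the period mean fell on Period 1 replicate 4 in 32 of the 100 genes and on Period 2 replicate 9 in 17.

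The most-read genes had estimates of the same small size. Among the 100 genes with the highest mean expression, at 1170 CPM or more, the log2 fold change was between -0.69 and 0.50, 8 genes had an unadjusted p under 0.05 and a change over 2-fold was excluded in 99. Among the 10 most-read genes it was between -0.69 and 0.20, 0 had an unadjusted p under 0.05 and a change over 2-fold was excluded in 9. Over all genes tested, 5.73% had such a p and a change over 2-fold was excluded in 98.8%. A change over 1.5-fold was excluded in 79 of the 100 and in 7 of the 10, beside 91.1% of all genes. The 95% confidence interval had a median width to either side of 0.286 and 0.475, respectively, and of 0.246 in all genes.

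Variation between bulls was similar in the 2 periods. The SD of log2 expression had a median of 0.239 in Period 1 and 0.265 in Period 2, and it was larger in Period 2 in 58.6% of genes. Without Period 2 replicate 5, these values were 0.243 in Period 2 and 49.9% of genes. Leaving out a distant bull lowers the SD of its own period, and no bull of Period 1 was left out here. The source of the difference was therefore not tested. Of the genes listed in 1 period only, 91 appeared in Period 1 and 168 in Period 2, with median ADLIB expression of 1.17 and 1.13 CPM. Of all these genes, 1 reached 10 CPM, with 13 CPM in Period 1, and none of them was tested.

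Among the 718 genes at an unadjusted p under 0.05, the median absolute log2 fold change was 0.3. A change over 2-fold was excluded in 681 of the 718, and a change over 1.5-fold was excluded in 451. Over all genes tested, these changes were excluded in 98.8 and 91.1%. A large estimate lowers the p by which the 718 genes were picked and hinders exclusion. The median and both counts therefore follow in part from the choice of genes. The 4 genes with the smallest p are described below, 2 with higher and 2 with lower expression in Period 2. They were picked from the same comparison, so their values describe the largest differences relative to the spread. With limma, 0 of the 4 passed the adjusted threshold. On the recovered reads, edgeR's exact test called ENSBTAG00000018300 (adjusted p = 0.0106), ENSBTAG00000000434 (adjusted p = 0.0106) and ENSBTAG00000030749 (adjusted p = 0.0244). DESeq2 called ENSBTAG00000018300 (adjusted p = 0.00357), ENSBTAG00000000434 (adjusted p = 0.0248) and ENSBTAG00000017718 (adjusted p = 0.0294), and edgeR's quasi-likelihood test called 0 of the 4.

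The gene ENSBTAG00000018300 had the smallest p. Its expression was 9.56, 13.4 and 16.5 CPM at the lowest, median and highest in Period 1, and 4.62, 8.26 and 9.87 CPM in Period 2. All 10 bulls of Period 2 lay below the median of Period 1, 8 of them lay below its lowest bull, and the ranges met only between 9.56 and 9.87 CPM. Group means were 13 ± 1.96 CPM (SD, n = 9) and 7.47 ± 2.11 CPM (SD, n = 10), and the log2 fold change was -0.76 with an SE of 0.14 (limma with Benjamini-Hochberg adjustment, adjusted p = 0.261). Its 95% confidence interval was from -1.05 to -0.47. These values rest on 86 to 175 reads per sample in Period 1 and 23 to 105 in Period 2. Over the 19 fits that each left out 1 bull, the adjusted p for this gene was from 0.0811 to 0.703 (limma).

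The gene ENSBTAG00000030749 was near the detection limit in most bulls of Period 1. Its lowest, median and highest expression was 0.108, 0.62 and 2.92 CPM in Period 1, and 0.439, 6.08 and 9.27 CPM in Period 2. In Period 1, 3 bulls had 2.27 CPM or more and the other 6 had 0.632 CPM or less, while in Period 2, 8 of 10 bulls lay above the highest bull of Period 1. Group means were 1.12 ± 1.13 CPM (SD, n = 9) and 5.48 ± 2.85 CPM (SD, n = 10), and the log2 fold change was 1.58 with an SE of 0.34 (limma with Benjamini-Hochberg adjustment, adjusted p = 0.572). The value depends on the 1 added to each CPM. It was 2.47 with 0.1 added instead, 2.49 with voom weights and between 2.23 and 2.27 with the count tests. The reads behind it were 1 to 31 per sample in Period 1 and 4 to 86 in Period 2. Period 2 replicate 1 had the lowest value of its group, 0.439 CPM, so leaving it out strengthens the change by construction. Without this bull the log2 fold change was 1.80 and the adjusted p was 0.0367 (limma). Among the 19 fits that each left out 1 bull, this was the lowest adjusted p for this gene, and the highest was 0.995. The unadjusted p was between 2.94e-06 and 0.000362 in these fits (limma). The adjusted p depends on the p of all other genes tested as well.

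The gene ENSBTAG00000000434 was expressed at 38.5, 51.9 and 100 CPM at the lowest, median and highest in Period 1, and at 52.9, 114 and 177 CPM in Period 2. The ranges overlapped between 52.9 and 100 CPM, and 6 of 10 bulls of Period 2 lay above the highest bull of Period 1. Group means were 60.2 ± 23.1 CPM (SD, n = 9) and 122 ± 42.9 CPM (SD, n = 10), and the log2 fold change was 1.00 with an SE of 0.22 (limma with Benjamini-Hochberg adjustment, adjusted p = 0.572). Over the 19 fits that each left out 1 bull, the adjusted p for this gene was from 0.0811 to 0.995 (limma).

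The gene ENSBTAG00000017718 was expressed at 3.03, 8.32 and 12.4 CPM at the lowest, median and highest in Period 1, and at 3.08, 4.49 and 6.09 CPM in Period 2. In Period 1, 7 of 9 bulls lay above the highest bull of Period 2, while Period 1 replicate 7 lay below its lowest bull. Group means were 8.51 ± 2.87 CPM (SD, n = 9) and 4.46 ± 1.09 CPM (SD, n = 10), and the log2 fold change was -0.75 with an SE of 0.18 (limma with Benjamini-Hochberg adjustment, adjusted p = 0.613). Leaving out Period 1 replicate 7, which had the lowest value of Period 1, strengthens the change by construction. Without this bull the log2 fold change was -0.90 and the adjusted p was 0.0344 (limma). This was the lowest adjusted p for this gene among the 19 fits that each left out 1 bull, and the highest was 0.995. Here too the adjusted p depends on the p of all other genes tested as well.

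**Figure D4:**
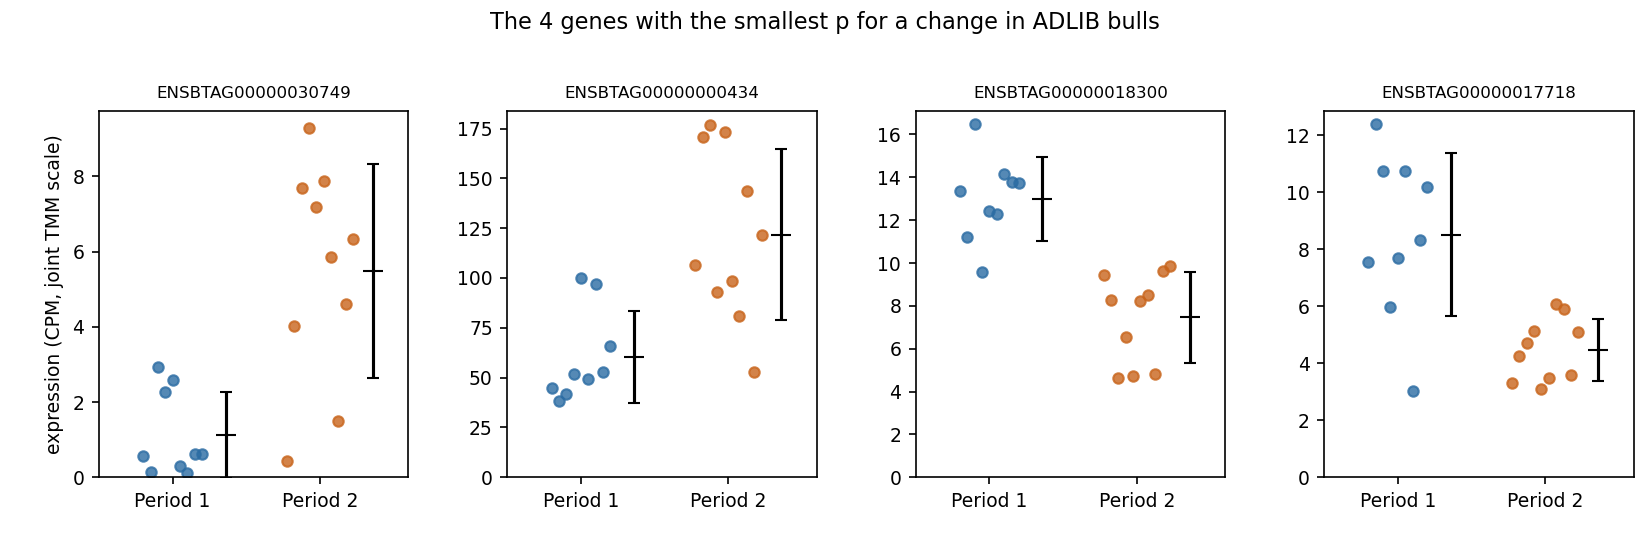
Expression (CPM on the common TMM scale) of the 4 genes with the smallest p in each ADLIB bull of Period 1 (n = 9) and Period 2 (n = 10); points are bulls, and the bars give the mean and SD, cut at 0. The periods differ in their means in all 4 genes, and their ranges overlap in all 4.

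The libraries carried a digit from 1 to 4 in their identifiers, whose meaning the labels do not give, and both periods held all 4 digits. Within each digit the 4 named genes differed between the periods in the same direction as overall. The log2 difference was from 0.659 to 3.02 for ENSBTAG00000030749, from 0.816 to 1.70 for ENSBTAG00000000434, from -0.915 to -0.523 for ENSBTAG00000018300 and from -1.42 to -0.25 for ENSBTAG00000017718. A digit held from 1 to 4 bulls per period, so these are values without a test. The 4 genes were picked from these same bulls, so a shared sign is favoured by the choice. Digit 1 held the libraries with the fewest reads, from 6190228 to 7263538, and comprised 1 bull of Period 1 and 2 of Period 2.

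For most of the leading genes the estimate had the same sign over the same interval in RES bulls. The 10 higher and 10 lower genes with the smallest p in ADLIB bulls were set beside the RES comparison, which shares no animal with the ADLIB comparison but shares its periods. In RES bulls, 204 of 12532 genes passed the adjusted threshold (1.63%) and 15.5% of genes had an unadjusted p under 0.05, so a member reached that p more easily there. Over all genes tested in both diets, 61% had the same sign, and 11.9% had the same sign together with an unadjusted p under 0.05 in RES. All 10 higher genes also had higher estimates in RES, 5 of them with an unadjusted p under 0.05 and 2 with an adjusted p under 0.05. Of the 10 lower genes, 7 also had lower estimates in RES, 4 of them with an unadjusted p under 0.05 and 1 with an adjusted p under 0.05. In 0 of the 20 did the difference between the ADLIB and RES changes pass the adjusted threshold (interaction in limma with Benjamini-Hochberg adjustment, lowest adjusted p = 0.268). An unadjusted p under 0.05 for that difference was found in 0 of the higher genes, in 3 of the lower genes and in 4.78% of all genes. The ADLIB change by which the 20 genes were picked enters that difference, so a low p for it is favoured by the choice.

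Of the named genes, ENSBTAG00000000434 had 37.1 ± 7.66 CPM (SD, n = 9) and 107 ± 61 CPM (SD, n = 10) in RES bulls of Period 1 and Period 2, a log2 fold change of 1.31 with an SE of 0.26 (limma with Benjamini-Hochberg adjustment, adjusted p = 0.0108). The gene therefore passed the adjusted threshold in RES and not in ADLIB bulls, while the difference between the diets was -0.31 with an SE of 0.36 (limma with Benjamini-Hochberg adjustment, adjusted p = 0.998). The RES log2 fold change was -0.61 for ENSBTAG00000018300, 0.72 for ENSBTAG00000030749 and -0.30 for ENSBTAG00000017718. The adjusted p in RES was 0.0975, 0.21 and 0.631, respectively (limma with Benjamini-Hochberg adjustment). For ENSBTAG00000030749 the ADLIB change exceeded the RES change by 0.88 on the log2 scale with an SE of 0.46, and this difference did not pass the threshold (limma with Benjamini-Hochberg adjustment, adjusted p = 0.998). The gene was picked by its ADLIB change, so a larger change in ADLIB than in RES bulls is favoured by the choice.

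**Figure D5:**
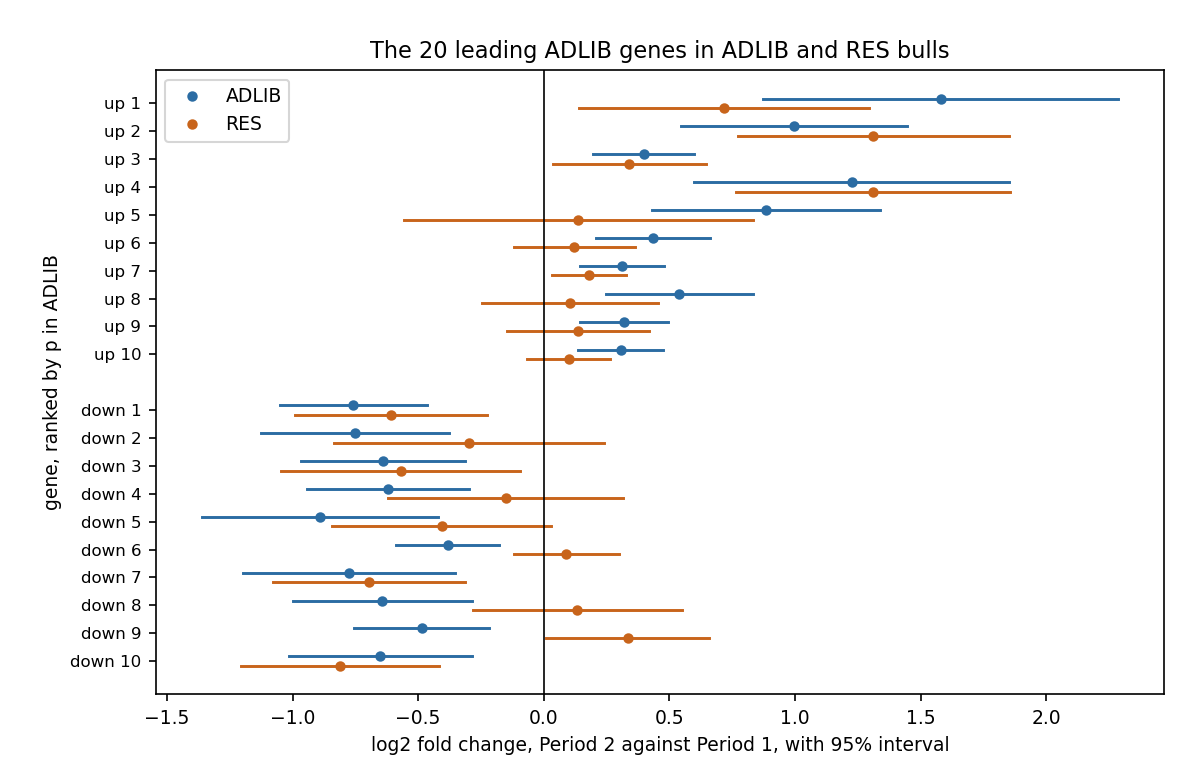
Log2 fold change between the periods with its 95% confidence interval in ADLIB (blue) and RES (orange) bulls for the 10 higher and 10 lower genes with the smallest p in ADLIB bulls, ranked by that p. All 10 higher genes and 7 of the 10 lower genes have the same sign in both diets.

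Over the 718 genes at an unadjusted p under 0.05 in ADLIB bulls, 562 (78.3%) had an estimate of the same sign in RES bulls, beside the 61% of all 12515 genes tested in both diets. These shares describe genes that are not independent of each other. In 200 of the 718 genes the RES change had the same direction and an unadjusted p under 0.05, and in 12 the opposite direction and such a p, while over all genes tested in both diets such genes made up 11.9 and 3.63%. Over all genes, 3 of 12543 differed between the diets in their change over time (0.0239%; limma interaction with Benjamini-Hochberg adjustment), 2 of them among the 718. The ADLIB change that defines the 718 genes enters this difference, so an overlap is favoured by the choice. When the library digit was added as a covariate, 0 genes differed.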

How the data were processed

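Rumen papillae RNA was sequenced as single-end reads. The series holds 38 samples, labelled as 1 bull each, and the 19 ADLIB samples were compared. The study's methods describe 10 animals per treatment and period, while the series holds 9 in each Period 1 group. According to the study's methods, the authors trimmed reads with FASTX-Toolkit, aligned them to UMD3.1 with Tophat and Bowtie2, counted them per Ensembl gene with HTSeq and removed genes with low counts. The unit of the deposited values is not named, and they were inferred to be CPM of the TMM-scaled library from edgeR, a normalized signal. All values (100%) were whole multiples of the value of 1 read (tolerance 0.01 reads), so reads were recovered.

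The TMM factors were recomputed over the 19 samples, genes were kept by filterByExpr, and log2(CPM + 1) was tested with limma 3.58.1 with a variance trend (edgeR 4.0.16, R 4.3.3, DESeq2 1.42.0, matplotlib 3.10.9), two-sided, with Benjamini-Hochberg adjustment over all genes tested. Steps were tested on simulated data. Fold changes are on the log2(CPM + 1) scale. Each sample was taken as a bull, as labelled, and p-values measure the spread between bulls. The genes named were the 2 higher and 2 lower genes with the smallest p. Members, lists and tests were chosen with earlier results of these data known. No identifier was paired with a symbol, so the planned gene lists, the cell type markers and any sequence were not analysed here. The alternatives set at the outset were RLE, the deposited scale, a pseudocount of 0.1, no filter, more than 1 CPM in at least 9 samples, no trend, voom weights, count tests on recovered reads, all 4 groups in 1 fit, the library digit, the replicate block and leaving out each bull. Summing replicates 1 and 8 of Period 1, and the classes of expression for direction, were chosen after the data were seen.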

Additional observations from a re-analysis of the deposited data

Results flagged for a closer look

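The library of ADLIB Period 2 replicate 5 covered 12696 listed genes with at least 1 read, and the next lowest of that group covered 12704, a gap of 0.571 of the whole range. No other sample passed Dixon's 95% limit among 18 combinations of a measure and a group (reads, the 10 most-read genes' share, the TMM factor, genes with reads, distance to the other samples and the 4 named genes), and chance passes this limit in about 1 in 20. This library also had the fewest reads, 6190228, and without it 617 genes had an unadjusted p under 0.05 and 0 an adjusted one.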

How the results depend on the processing

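The number of genes changed over time in ADLIB bulls was 0 under RLE, the deposited scale, the pseudocount of 0.1, both other filters, no variance trend, voom weights, all 4 groups in 1 fit, the library digit, the quasi-likelihood test, the replicate block and with Period 1 replicates 1 and 8 as 1 sample. It was 3 with edgeR's exact test (585 genes at an unadjusted p under 0.05) and 4 with DESeq2 (744 genes), each count with 3 of the 4 named genes, and 2 genes were called by both. Leaving out 1 bull at a time gave from 0 to 1 gene, with 1 gene each without Period 1 replicate 7 and without Period 2 replicate 1. The unadjusted p passed in 513 to 980 genes there, with the lowest count without Period 1 replicate 8 and the highest without Period 1 replicate 5. A change over 2-fold was excluded in 12135 to 12395 genes over the other alternatives and a change over 1.5-fold in 10356 to 11462, the lowest of each with voom weights and the pseudocount of 0.1, respectively. Leaving out 1 bull, these counts were 12330 to 12378 and 11164 to 11474. The difference between ADLIB and RES, 3 genes, was 1 gene with the pseudocount of 0.1, 0 with the library digit and 0 with the replicate block. The cause was not tested. Of 132 values of the named genes under the alternatives, none reversed and 8 passed the adjusted threshold (6 with a count test, 2 without 1 bull). Replicate numbers are shared between the periods, but the bulls are different animals. The correlation of deviations between bulls with the same number was over 0.1 in 3 of 9 pairs (-0.268 to 0.2). Its mean was 0.0322, beside -0.00332 for pairs with other numbers. The best correlation was with the own number in 0 of 9 bulls of Period 1 and in 2 of 9 of Period 2. Such correlations between different animals cannot decide whether the numbers mark a block of the trial. With the replicate block, 863 genes had an unadjusted p under 0.05 and 0 an adjusted one. The fits with this block left out replicate 10 of Period 2, a number that Period 1 does not hold. Medians of gene lists were not run, since no identifier was paired with a symbol. Among genes under 5 CPM, the share in which a change over 1.5-fold was excluded depends on the pseudocount (83.7% with 1 and 48.3% with 0.1), and the part of depth in it was not tested.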

Other observations

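Of the 4 genes called by DESeq2, 1 was not among the named genes, and it was looked at after its values were seen. Its expression in Period 1 was 43.1 CPM in replicate 4 and at most 3.21 CPM in the other 8 bulls, with a median of 1.69 CPM. In Period 2 the median was 3.88 CPM and the highest value was 24.5 CPM. The means were 6.22 ± 13.8 CPM (SD, n = 9) and 6.5 ± 6.88 CPM (SD, n = 10). The DESeq2 log2 fold change was 1.87 (adjusted p = 0.0294) and the limma log2 fold change was 0.75 (unadjusted p = 0.143). The DESeq2 estimate is thus not the ratio of these means, which are nearly equal. DESeq2 was run with its default handling of outlying counts, whose part in this call was not tested.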
